A study of Homo sapiens with 6 samples.

Results

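The amino acid response is the programme by which a cell adjusts to a shortage of amino acids, and its genes were followed in C4-2 cells treated with a supraphysiological androgen level (SAL). The set comprised 44 genes, listed by symbol for their known function by a rule that uses no counts, out of 55765 gene symbols in the files. They encode ATF4 and related transcription factors, stress effectors, enzymes that make amino acids, amino acid transporters and the cytosolic aminoacyl-tRNA synthetases. The genes were nevertheless chosen with earlier results of these data known. C4-2 is a castration-resistant human prostate cancer cell line derived from LNCaP. RNA-seq was carried out on 6 libraries, 3 from cells given the solvent DMSO and 3 from cells given 1 nM R1881 (methyltrienolone, a stable androgen receptor agonist), each after 72 h in DMEM. The labels name no genetic change in either group, the cells had been grown with fetal bovine serum, and the libraries of each group carry the numbers 1 to 3. The comparison asks which transcripts change when the androgen is added.

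When amino acids run short or proteins misfold, kinases phosphorylate the initiation factor eIF2, most translation slows, and the mRNA of ATF4 is translated more. ATF4 then pairs with C/EBP proteins on a composite element, the C/EBP-ATF response element, and raises transcription of genes that import, make and load amino acids onto tRNA. Because ATF4 is controlled largely at translation, its mRNA counts do not give its protein level. Several of these genes, such as SLC7A5 and SLC43A1, encode transporters that bring leucine into prostate cancer cells.

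The core letters of the response element can be searched for in the promoters of the set, although a match does not show that ATF4 binds there. A window from 250 bases before to 50 bases after each annotated start was taken from RefSeq (GRCh38.p14), which held such windows for 37 of the 44 genes. The core TGATGNAA was searched on both strands, so that its reverse complement TTNCATCA was counted as well. It was present in a window of 15 of the 37 genes (40.5%), against 4.46% of the 27305 genes in the table. The form TGATGCAA alone was present in 10 of the 37 (27.0%), against 1.08% of all genes. Genes with more starts have more windows, and per window the core was present in 26.8% of 56 windows of the set and in 3.62% of 35116 windows. Many of these genes are known as ATF4 targets, so a high share describes the set and is not an effect of SAL.

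The sequences below are 30-base stretches on the strand of the gene, 5′ to 3′, with the core in capitals, shown because matches to the core occur in genes that fell, rose or were not called with SAL.
ASNS, chr7:97872458-97872487, minus strand, fell: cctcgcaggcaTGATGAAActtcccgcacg
CHAC1, chr15:40953251-40953280, plus strand, fell: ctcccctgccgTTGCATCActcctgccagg
CEBPG, chr19:33374060-33374089, plus strand, fell: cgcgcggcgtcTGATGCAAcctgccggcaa
CARS, chr11:3057407-3057436, minus strand, fell: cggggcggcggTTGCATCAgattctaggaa
IARS, chr9:92293692-92293721, minus strand, fell: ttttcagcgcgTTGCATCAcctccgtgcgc
ATF3, chr1:212565205-212565234, plus strand, rose: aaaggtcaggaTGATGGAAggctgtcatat
AARS, chr16:70289675-70289704, minus strand, not called: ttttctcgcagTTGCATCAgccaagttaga
MARS, chr12:57488053-57488082, plus strand, not called: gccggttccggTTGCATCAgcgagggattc
In CARS and MARS the core spanned the start site, with its first base at -2 and -4 from it, and in IARS it began at -13. In ASNS, CEBPG, CHAC1 and AARS it began at -68, -42, -209 and -187.

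Between 7864471 and 12532355 reads per library were counted on genes, of which 11.9% to 27.8% fell on rRNA genes that were removed. The counts had the markers of a luminal prostate line. All 9 luminal prostate markers were detected, with a summed level of 2735 to 5225 CPM in DMSO and 5006 to 10253 CPM in SAL, while KRT5, COL1A2, CDH5, PTPRC and CD3E were at 0 in every library. CPM are the counts scaled to library size with the TMM factors of edgeR. The leukocyte markers had at most 3 counts each, and the fibroblast and endothelial lists reached 11.1 and 3.84 CPM in sum, mostly from COL1A1 and VWF. The androgen-induced gene KLK3 rose with SAL by 1.21 on the log2 scale (adjusted p = 3.33e-07, edgeR with the replicate number as a block). The libraries differ more by replicate number than by treatment. For a typical gene of the set, 88.1% of the sum of squares of log2 CPM was between replicate numbers and 9.56% between treatments (medians over the 44 genes). Changes were therefore measured within same-numbered pairs.

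SAL lowered much of the amino acid response. All 44 genes passed the filter on low counts, and 23 fell, 3 rose and 18 were not called at an adjusted p under 0.05 (edgeR's quasi-likelihood test with the replicate number as a block, Benjamini-Hochberg adjustment over 16835 genes). Called genes made up 59.1% of the set, against 20.8% of all genes tested. The share that fell was 52.3%, against 9.37% of all genes tested, and the share that rose was 6.82%, against 11.5% of all genes. The median log2 fold change of the set was -0.35, where that of all genes was -0.0011. In 29 of the 44 genes each of the 3 pairs was lower in SAL, which was so for 25.3% of all genes. In bulk RNA, fewer cells that express a gene and less RNA per cell cannot be told apart. Without the replicate block no gene of the set was called, where 3 of all 16835 genes fell and 18 rose. Without replicate 3 the number that fell was 4 (ASNS, MTHFD2, SLC7A11 and SLC7A5), and 3 rose. Of all 16992 genes tested there, 483 fell and 750 rose. Changes were moderate, since none of the 23 falls reached 1 on the log2 scale.

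**Figure D1:**
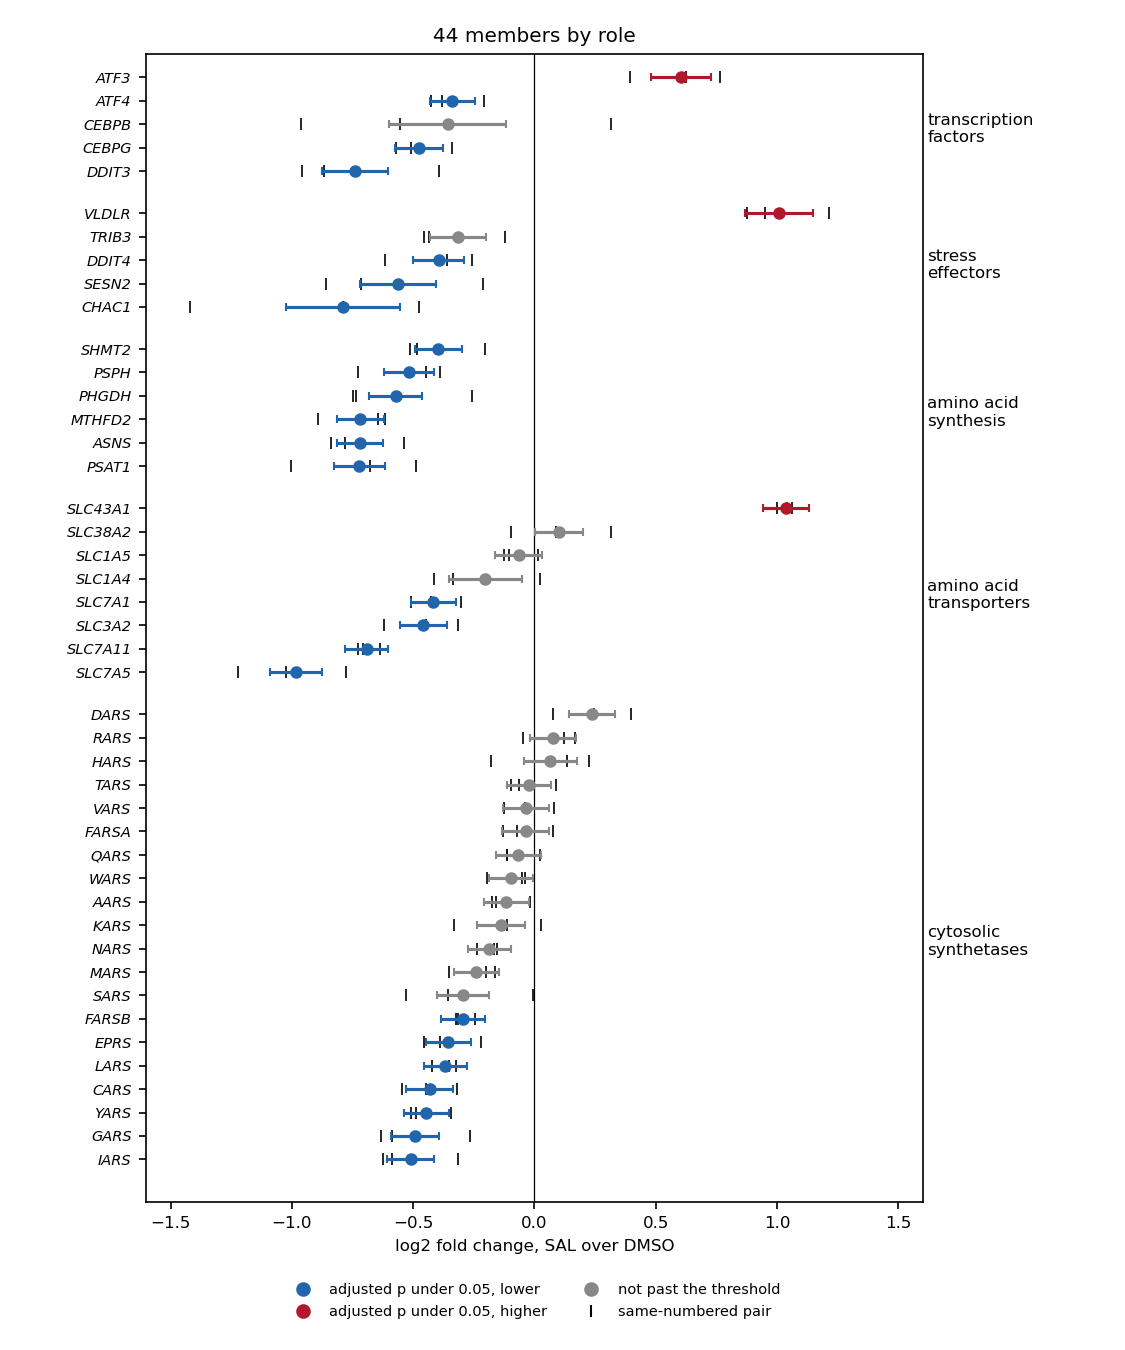
Log2 fold change of SAL over DMSO for the 44 genes, grouped by role, with dots for the edgeR estimate, bars for its standard error and short black ticks for the 3 same-numbered pairs. The 6 genes of amino acid synthesis all lie below 0, the synthetases spread from -0.51 to 0.24, and only ATF3, VLDLR and SLC43A1 are marked as higher.

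Among the transcription factors, ATF4, DDIT3 and CEBPG fell, ATF3 rose and CEBPB was not called. ATF4, the activator of the programme (chromosome 22, 39915700 to 39918688 in GRCh37), was at 303, 508 and 255 CPM in DMSO replicates 1 to 3 and at 225, 439 and 196 CPM in the SAL replicates. The groups overlap because replicate 2 was high in both, but each pair was lower in SAL. Its log2 fold change was -0.34 (SE 0.09, the standard error, adjusted p = 0.0158). DDIT3 encodes CHOP, a factor that ATF4 induces and that can promote cell death under prolonged stress. DDIT3 was at 35.4, 33.1 and 35.4 CPM in DMSO and at 19.3, 25.1 and 18.1 CPM in SAL. Every SAL library was below every DMSO library. This was so for 6 genes of the set and for 3.73% of all genes, while no gene of the set was without overlap in the other direction (3.78% of all genes). The log2 fold change was -0.74 (SE 0.14, adjusted p = 0.00119). Exons of DDIT3 overlap those of MARS on the other strand, and the counting did not separate strands. Exons of other genes of the set overlap those of neighbours too in GENCODE v44, such as ASNS (2415 of 4896 bases) and MTHFD2 (1619 of 11443). The authors counted with an earlier GENCODE version, and the overlaps in that version were not checked.

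CEBPG, a partner of ATF4 on the response element, was at 86.8, 69.5 and 93.1 CPM in DMSO and at 61.0, 54.8 and 62.6 CPM in SAL, with no overlap and a log2 fold change of -0.48 (SE 0.10, adjusted p = 0.00255). ATF3, a stress-induced factor downstream of ATF4 and of other pathways, went the other way. It was at 15.6, 35.4 and 27.4 CPM in DMSO and at 24.2, 60.4 and 36.1 CPM in SAL, higher in each pair, with a log2 fold change of 0.60 (SE 0.12, adjusted p = 0.00225). CEBPB, another C/EBP partner, was at 32.7, 38.6 and 24.7 CPM in DMSO and at 16.6, 48.0 and 16.8 CPM in SAL. Its pairs differed in direction, with -0.96, 0.31 and -0.55, and its adjusted p was 0.366. Leaving out replicates 1, 2 and 3 in turn moved CEBPB to -0.05, -0.79 and -0.28 on the log2 scale (adjusted p = 0.842, 0.00561 and 0.670, edgeR). Without replicate 3, ATF4, CEBPG and DDIT3 had log2 fold changes of -0.32, -0.43 and -0.63 and adjusted p-values of 0.344, 0.142 and 0.0647 (edgeR).

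The enzymes of amino acid synthesis formed the group with the most uniform fall. All 6 fell, each in all 3 pairs, with a median log2 fold change of -0.64. Of all genes tested, 9.37% fell and 25.3% were lower in all 3 pairs. ASNS makes asparagine (chromosome 7, 97480989 to 97501854 in GRCh37). It was at 231, 415 and 271 CPM in DMSO and at 129, 286 and 157 CPM in SAL, a log2 fold change of -0.72 (SE 0.10, adjusted p = 6.15e-05). Its SAL level was 0.608 of the DMSO level within pairs, although the library of SAL replicate 2 lay above that of DMSO replicate 1.

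The serine pathway runs from PHGDH through PSAT1 to PSPH. PHGDH, its first enzyme, was at 86.8, 403 and 207 CPM in DMSO and at 51.6, 337 and 124 CPM in SAL. PSAT1 was at 350, 436 and 333 CPM in DMSO and at 249, 272 and 166 CPM in SAL. PSPH was at 89.5, 98.5 and 66.3 CPM in DMSO and at 65.6, 75.1 and 39.9 CPM in SAL. The PSAT1 groups do not overlap, while those of PHGDH and PSPH do. The log2 fold changes were -0.57, -0.72 and -0.52 for PHGDH, PSAT1 and PSPH (adjusted p = 0.0017, 0.000145 and 0.00189, edgeR). Downstream of serine, the mitochondrial enzymes SHMT2 and MTHFD2 pass its carbon into folate metabolism. MTHFD2 was at 300, 247 and 265 CPM in DMSO and at 192, 161 and 143 CPM in SAL, with no overlap, a log2 fold change of -0.72 and an adjusted p of 5.95e-05 (edgeR). SHMT2 was at 112, 465 and 226 CPM in DMSO and at 78.8, 404 and 162 CPM in SAL, a log2 fold change of -0.40 (SE 0.10, adjusted p = 0.00846). Replicate 2 was far above the other replicates in PHGDH and SHMT2 under both treatments, but not in MTHFD2. Without replicate 3, PSAT1, PHGDH, PSPH and SHMT2 kept their direction and had adjusted p-values of 0.0519, 0.128, 0.145 and 0.284, and ASNS and MTHFD2 had 0.0230 and 0.0312 (edgeR).

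**Figure D2:**
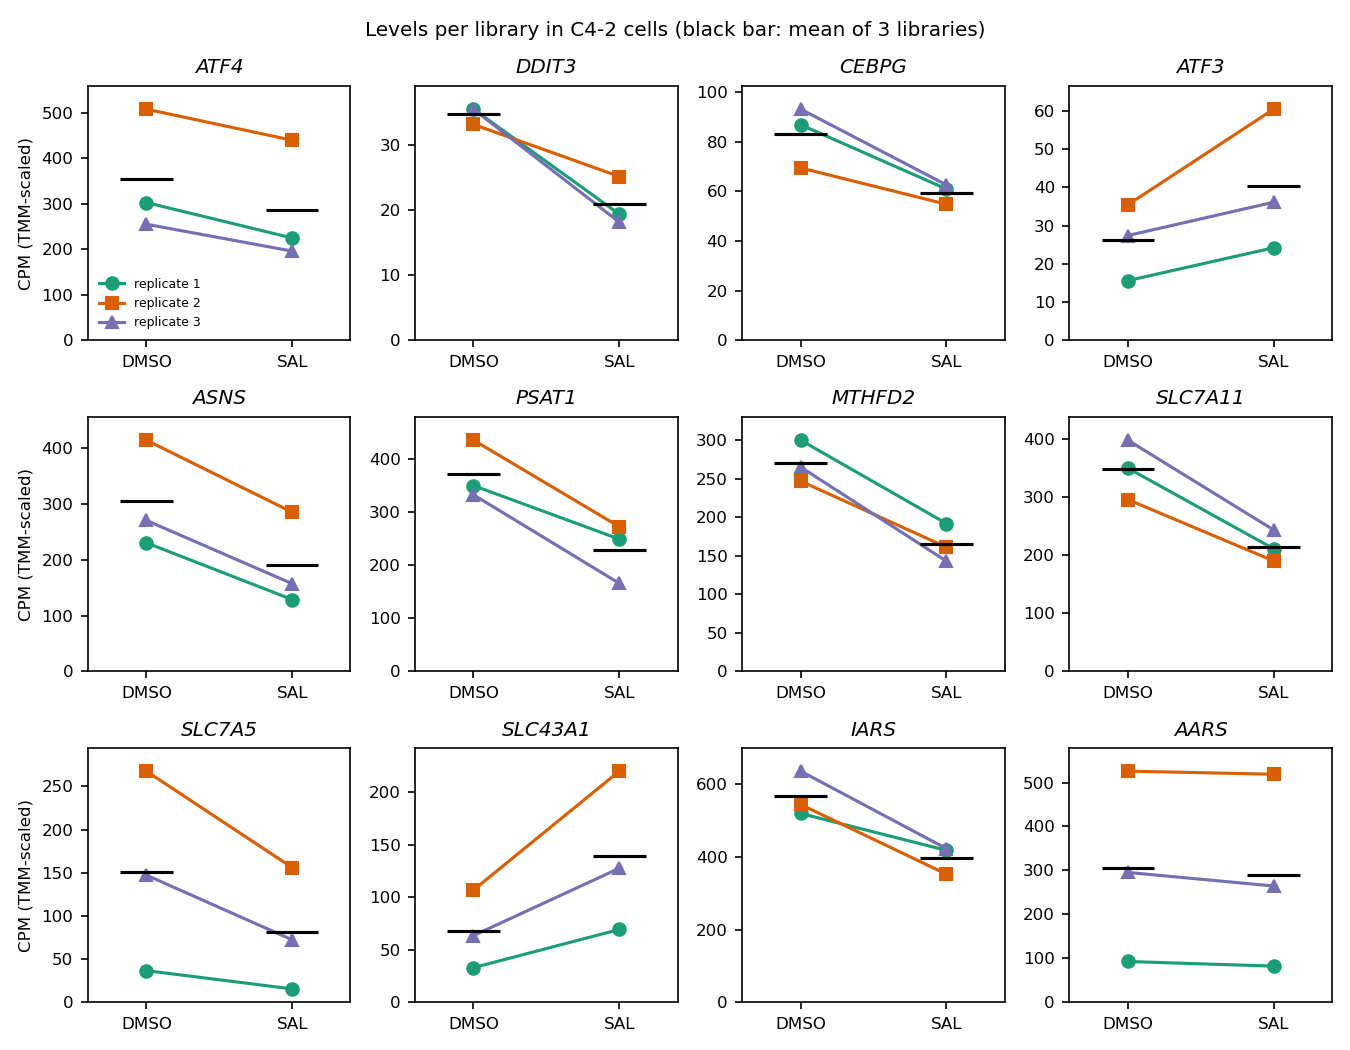
Levels in CPM of 12 genes in each library, with coloured lines that join the DMSO and SAL library of the same replicate number and black bars for the mean of 3 libraries. DDIT3, CEBPG, PSAT1, MTHFD2, SLC7A11 and IARS show SAL libraries all below the DMSO libraries, ATF3 and SLC43A1 rise in each pair, and AARS differs between replicates but hardly between treatments.

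Of the 8 amino acid transporters, 4 fell, 1 rose and 3 were not called. The share that fell was 50%, against 9.37% of all genes, and the share that rose, 12.5%, was near their 11.5%. SLC7A11 encodes xCT, which exchanges glutamate for cystine and so feeds glutathione synthesis. It was at 350, 296 and 398 CPM in DMSO and at 211, 190 and 244 CPM in SAL, with no overlap and a log2 fold change of -0.69 (SE 0.09, adjusted p = 4.6e-05). SLC7A5 encodes LAT1, the exchanger for leucine and other large neutral amino acids. It was at 36.8, 268 and 147 CPM in DMSO and at 15.6, 156 and 72.4 CPM in SAL. Its log2 fold change of -0.98 (SE 0.11, adjusted p = 8.76e-06) was the largest fall of the 44 genes in the fit with the block. SLC3A2 encodes CD98, the heavy chain that carries both LAT1 and xCT to the cell surface. It was at 136, 170 and 117 CPM in DMSO and at 99.4, 137 and 76.1 CPM in SAL, a log2 fold change of -0.46 (adjusted p = 0.00317, edgeR). SLC7A1, a carrier of arginine and lysine, was at 109, 755 and 474 CPM in DMSO and at 88.2, 561 and 333 CPM in SAL, a log2 fold change of -0.42 (adjusted p = 0.00415, edgeR). Without replicate 3, SLC3A2 and SLC7A1 had adjusted p-values of 0.210 and 0.257, and SLC7A11 and SLC7A5 had 0.0203 and 0.00303.

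SLC43A1 encodes LAT3, a facilitated carrier of leucine that, unlike LAT1, does not need CD98. It rose while SLC7A5 and SLC3A2 fell. SLC43A1 was at 33.1, 107 and 63.6 CPM in DMSO and at 69.4, 220 and 128 CPM in SAL. The groups overlap, yet the pairs were close to each other at 1.06, 1.04 and 1.00, and the log2 fold change was 1.04 (SE 0.09, adjusted p = 1.31e-06). SLC38A2, a sodium-coupled carrier of small neutral amino acids, was at 636, 431 and 593 CPM in DMSO and at 791, 403 and 631 CPM in SAL, with pairs in both directions and an adjusted p of 0.519. The glutamine and neutral amino acid carriers SLC1A5 and SLC1A4 had log2 fold changes of -0.06 and -0.20 (SE 0.10 and 0.15, adjusted p = 0.700 and 0.389, edgeR). Among 10 other amino acid transporters tested, 3 fell and 1 rose (of all genes, 9.37% fell and 11.5% rose). SLC7A2, an arginine carrier, changed by -0.65, SLC1A3, a glutamate carrier, by -1.16 and SLC7A8, the LAT2 exchanger, by 0.69 on the log2 scale (adjusted p = 0.000218, 0.00129 and 0.000274, edgeR).

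Among the stress effectors, DDIT4, CHAC1 and SESN2 fell, VLDLR rose and TRIB3 was not called. DDIT4 and SESN2 restrain the growth kinase mTORC1. DDIT4 was at 32.3, 126 and 58.1 CPM in DMSO and at 21.003, 105 and 45.2 CPM in SAL, a log2 fold change of -0.39 (adjusted p = 0.0149, edgeR). SESN2 was at 9.42, 41.6 and 30.3 CPM in DMSO and at 5.63, 35.9 and 16.6 CPM in SAL, a log2 fold change of -0.56 (adjusted p = 0.0182, edgeR). CHAC1 degrades glutathione and is a sensitive readout of ATF4. It was low, at 3.84, 15.0 and 7.22 CPM in DMSO and at 1.28, 10.7 and 4.07 CPM in SAL, the lowest of these from 10 counts. Its log2 fold change was -0.79 (SE 0.23, adjusted p = 0.0256). With DESeq2 and the block, DDIT4, SESN2 and CHAC1 had adjusted p-values of 0.0546, 0.0502 and 0.0781, and without replicate 3 they had 0.176, 0.329 and 0.168.

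TRIB3, a pseudokinase that binds and inhibits ATF4, was at 17.7, 87.2 and 47.8 CPM in DMSO and at 13.1, 80.3 and 34.9 CPM in SAL. It was lower in each pair, with a log2 fold change of -0.32 (SE 0.11, adjusted p = 0.0652), and leaving out replicates 1, 2 and 3 in turn gave -0.27, -0.46 and -0.25 (adjusted p = 0.0801, 0.0422 and 0.496). VLDLR, a receptor for lipoproteins and reelin that ATF4 can induce, rose. It was at 8.30, 16.4 and 20.04 CPM in DMSO and at 19.6, 31.9 and 36.96 CPM in SAL, a log2 fold change of 1.01 (SE 0.14, adjusted p = 9.06e-05). Its pairs were 1.21, 0.95 and 0.87.

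The cytosolic aminoacyl-tRNA synthetases, which load each amino acid onto its tRNA, fell in part. Of the 20 genes, 7 fell, none rose and 13 were not called, where 9.37% of all genes fell and 11.5% rose. At an unadjusted p under 0.05 no synthetase other than DARS was higher. The median log2 fold change was -0.16, and 17 of the 20 estimates were below 0, as were 8443 of the 16835 genes tested. IARS, for isoleucine, was at 520, 545 and 636 CPM in DMSO and at 418, 353 and 423 CPM in SAL, the only synthetase whose groups do not overlap, with a log2 fold change of -0.51 (SE 0.10, adjusted p = 0.00128). GARS, for glycine in both cytosol and mitochondria, was at 477, 515 and 409 CPM in DMSO and at 308, 428 and 272 CPM in SAL, a log2 fold change of -0.49 (adjusted p = 0.00196, edgeR). YARS, for tyrosine, was at 107, 321 and 204 CPM in DMSO and at 74.9, 253 and 145 CPM in SAL, a log2 fold change of -0.45 (adjusted p = 0.00267, edgeR). CARS, for cysteine, was at 48.7, 130 and 87.8 CPM in DMSO and at 33.3, 104 and 64.3 CPM in SAL, a log2 fold change of -0.43 (adjusted p = 0.00493, edgeR). All 4 were lower in each pair.

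LARS, for leucine, was at 341, 195 and 327 CPM in DMSO and at 254, 156 and 256 CPM in SAL, a log2 fold change of -0.37 (adjusted p = 0.0081, edgeR). EPRS, the fused enzyme for glutamate and proline, was at 740, 459 and 821 CPM in DMSO and at 636, 335 and 627 CPM in SAL, a log2 fold change of -0.35 (adjusted p = 0.0128, edgeR). FARSB, a subunit of the phenylalanine enzyme, was at 232, 109 and 175 CPM in DMSO and at 187, 87.3 and 147 CPM in SAL, a log2 fold change of -0.29 (adjusted p = 0.0317, edgeR). Its partner subunit FARSA had -0.04 (SE 0.10, adjusted p = 0.837). In LARS, EPRS and FARSB, replicate 2 was the lowest under both treatments, whereas in YARS and CARS it was the highest. The FARSB call depended on the test, with adjusted p-values of 0.0857 with DESeq2 and the block and 0.0525 without replicate 2. Without replicate 3 the 7 genes kept their direction and none was called, with adjusted p-values from 0.139 (IARS) to 0.323 (EPRS).

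The other 13 synthetases had log2 fold changes between -0.29 and 0.24, each with a standard error of about 0.1. SARS and MARS, for serine and methionine, had -0.29 and -0.24 (adjusted p = 0.0664 and 0.0823, edgeR), and DARS, for aspartate, had 0.24 (adjusted p = 0.0993), with each pair higher in SAL. With replicates 1, 2 and 3 left out in turn, SARS had -0.17, -0.46 and -0.26 (adjusted p = 0.218, 0.00794 and 0.481, edgeR). MARS had -0.27, -0.28 and -0.18 (adjusted p = 0.0306, 0.0814 and 0.634, edgeR). DARS had 0.32, 0.14 and 0.24 (adjusted p = 0.0133, 0.378 and 0.514, edgeR). NARS, KARS, AARS and WARS had -0.19, -0.14, -0.12 and -0.10, while QARS, VARS, TARS, HARS and RARS lay between -0.07 and 0.08. AARS has a match to the core of the response element in its promoter window and was at 93.0, 526 and 296 CPM in DMSO. In SAL it was at 82.5, 519 and 265 CPM. Of the 8 synthetases of the multisynthetase complex, 3 fell (EPRS, IARS and LARS), and the median of the 8 changes was -0.19. Of the 12 others 4 fell, with a median of -0.15, where 9.37% of all genes fell. None of the 3 scaffold proteins of this complex, AIMP1, AIMP2 and EEF1E1, was called, with log2 fold changes of 0.14, -0.19 and 0.0083 (SE 0.10, 0.09 and 0.15).

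Genes with and without the core of the response element in their window were found among those that fell. Of the 15 genes with the core, 8 fell, 1 rose and 6 were not called, with a median log2 fold change of -0.42. Of the 22 genes with a window but no core, 10 fell, 2 rose and 10 were not called, with a median of -0.30. Of the 7 genes with no window, 5 fell and 2 were not called, with a median of -0.40. Of all genes tested, 9.37% fell and 11.5% rose. A link between the core and the change was not tested. PSAT1, MTHFD2, SLC7A5 and DDIT3 fell without the core in these 300 bases, which says only that these letters were not in this window.

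Per length of transcript, ATF4, GARS, TARS, NARS and PSAT1 had the highest means over the 6 libraries, with 226, 165, 158, 145 and 136 CPM per kb. Their order differed between libraries, and in SAL replicates 1 and 3 TARS was above ATF4. The lowest were VLDLR, SLC1A4 and CHAC1, with 2.41, 4.58 and 4.63 CPM per kb. These means hide a wide spread between replicate numbers, and differences between neighbours in this order were not tested.

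One difference between replicate numbers, that of DMSO replicates 2 and 1, was set against base composition. Between DMSO replicates 2 and 1, log2 CPM differed from -1.49 in RARS, whose transcript has 41.1% GC, to 2.85 in SLC7A5, with 61.2% GC. Over the 44 genes this difference correlated with the GC content of the transcript with a Pearson's r of 0.785 and a Spearman's rho of 0.822, and over 14138 genes with 0.585 and 0.615. The log2 fold change of SAL over DMSO correlated with GC content with an r of -0.05 and a rho of -0.03 over the 44 genes, and with 0.0812 and 0.119 over the 14138 genes. These are descriptions across genes of the same libraries, which are not independent replicates. With a correction for GC content and length in the fit with the block, 26 of the 44 genes fell and 4 rose. That fit also called more of all genes, with 1952 of 14138 that fell and 2018 that rose. Without the correction, 1577 of 16835 fell and 1931 rose.

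**Figure D3:**
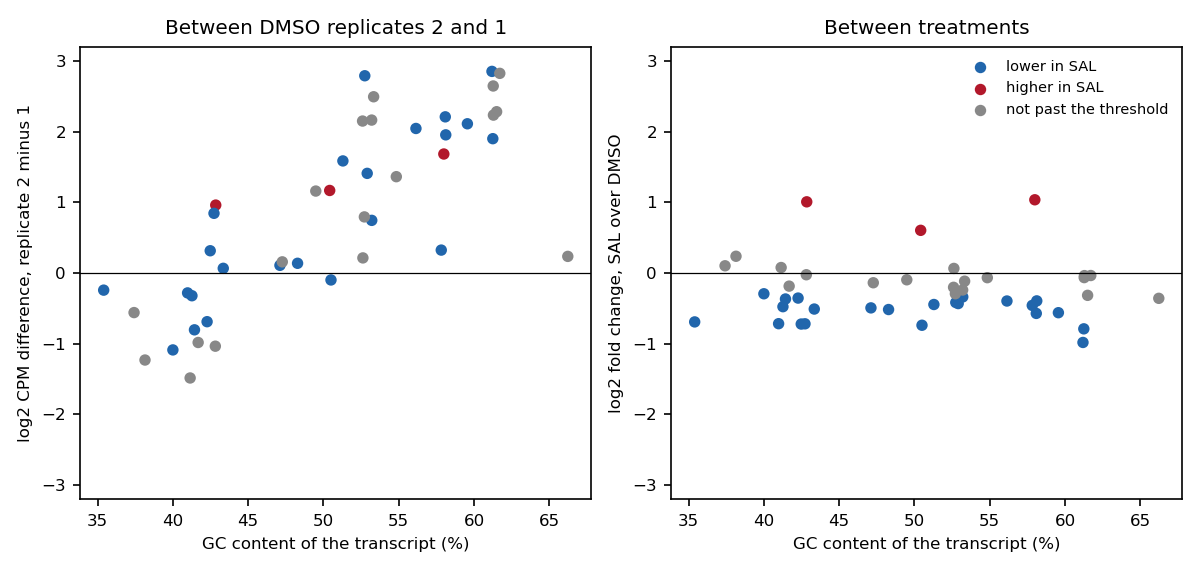
GC content of the transcript in percent against the log2 CPM difference between DMSO replicates 2 and 1 (left) and against the log2 fold change of SAL over DMSO (right), 1 point per gene for the 44 genes, on the same vertical scale. On the left the points rise with GC content from -1.49 to 2.85, and on the right they lie between -0.98 and 1.04 without such a slope.

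Upstream of ATF4, of 15 genes of the eIF2 pathway (kinases, subunits of eIF2 and of its exchange factor eIF2B, and phosphatase subunits), none fell and 2 rose, and their median change was 0.03 on the log2 scale. The share that rose, 13.3%, was near the 11.5% of all genes. At an unadjusted p under 0.05 the subunit gene EIF2S3 was lower, with -0.22, and EIF2AK2, the kinase PKR that senses double-stranded RNA, was higher, with 0.26 (adjusted p = 0.0954 and 0.0730, edgeR). EIF2AK4, the kinase GCN2 that senses uncharged tRNA, rose from 113 ± 25.1 to 145 ± 40.2 CPM (SD, n = 3 libraries), a log2 fold change of 0.34 with an adjusted p of 0.0173 from edgeR. EIF2B4 rose by 0.62 (adjusted p = 0.00115, edgeR). EIF2AK3, the kinase PERK of the endoplasmic reticulum, had 0.16 (SE 0.12, adjusted p = 0.374). Phosphorylation of eIF2 is not measured by RNA-seq.

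Another 15 genes known as ATF4 targets were tested, of which 4 fell and 1 rose (26.7% and 6.67%, against 9.37% and 11.5% of all genes), with a median log2 fold change of -0.15. STC2, a secreted glycoprotein, changed by -0.81, ALDH1L2, a mitochondrial folate enzyme, by -1.06 and SLC6A9, a glycine transporter, by -0.53 (adjusted p = 0.000273, 0.000416 and 0.0184, edgeR). XPOT, which exports tRNA from the nucleus, fell from 730 ± 105 to 506 ± 79.2 CPM (SD, n = 3 libraries), with an adjusted p of 0.000553 from edgeR. GDF15, a secreted stress cytokine that p53 also induces, went from 50.4, 237 and 76.8 CPM in DMSO to 94.9, 826 and 211 CPM in SAL, a log2 fold change of 1.41 (adjusted p = 7.65e-05). The other 10 targets tested were not called. Among these, NUPR1 was higher by 0.60 at an unadjusted p under 0.05 (adjusted p = 0.0824, edgeR). JDP2 and NFIL3 were lower at that threshold, with -0.95 and -0.43 (adjusted p = 0.131 and 0.138, edgeR). FGF21 was too low to be tested. Of the 17 mitochondrial synthetases, 2 fell and 1 rose, with a median log2 fold change of -0.06. These shares, 11.8% and 5.88%, compare with 9.37% and 11.5% of all genes. AARS2, for alanine, changed by -0.43 and RARS2, for arginine, by 0.48 (adjusted p = 0.0370 and 0.0401, edgeR).

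Chaperones and other folding factors of the endoplasmic reticulum, which the XBP1 and ATF6 arms of the unfolded protein response raise, rose in large part. Of 15 such genes 10 rose and none fell, where 11.5% of all genes rose. All 15 estimates were above 0, as were 8392 of the 16835 genes tested, with a median log2 fold change of 0.37. At an unadjusted p under 0.05 none was lower either. DNAJB9 rose from 39.0, 17.2 and 26.6 CPM in DMSO to 78.4, 39.0 and 55.3 CPM in SAL, a log2 fold change of 1.07 (adjusted p = 4.3e-06, edgeR). DNAJC3, the chaperone that also inhibits eIF2 kinases, rose by 0.59 and HERPUD1, a degradation factor, by 0.50 (adjusted p = 0.000636 and 0.0018, edgeR). HSPA5, the chaperone BiP, rose by 0.45 (adjusted p = 0.00213, edgeR).

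**Figure D4:**
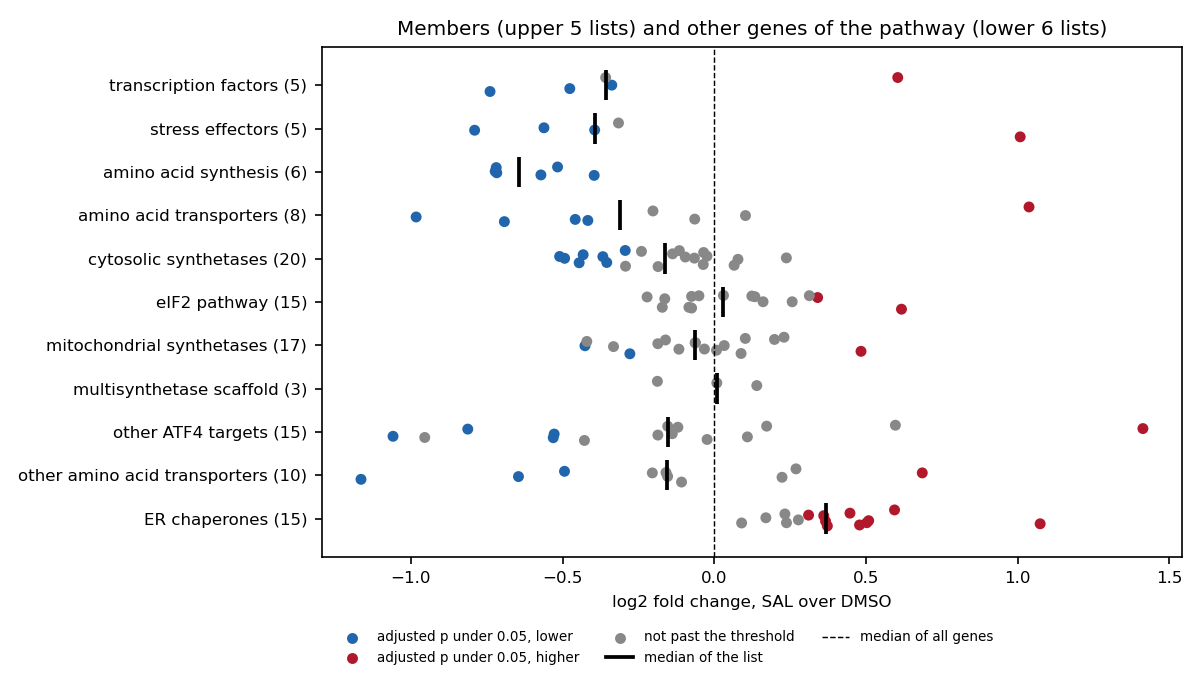
Log2 fold change of SAL over DMSO for each gene tested in the 5 groups of the set and in 6 lists of related genes, with the number of genes in brackets, thick bars for the median of a list and a dashed line for the median of all genes. Amino acid synthesis lies at a median of -0.64, the cytosolic synthetases at -0.16, the eIF2 pathway at 0.03 and the chaperones of the endoplasmic reticulum at 0.37.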

How the data were processed

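The 6 C4-2 libraries were prepared by the authors from total RNA with a stranded kit. Of each read pair the authors used the first read after trimming. TopHat2 2.1.0 mapped it to hg19, and the authors then counted reads per gene with HTSeq 0.11.2 and the GENCODE annotation named in the methods, without regard to strand. The deposited files hold those raw counts, 1 value for each gene symbol. Reads that matched several places were not counted, so genes with pseudogenes in the table (ATF4, ASNS, PSAT1, PSPH, MTHFD2, SLC7A5, KARS and FARSB) are less certain.

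Here 523 rRNA gene symbols and the tallies that HTSeq appends were left out. The tally of reads outside genes took from 24.0% to 48.3% of all tallied reads. Low genes were removed with filterByExpr, which left 16835 genes. SAL was compared with DMSO with edgeR 4.0.16 (TMM, robust quasi-likelihood test, R 4.3.3) and the replicate number as a block, after the paired test of the study. The libraries were taken as paired by number. Across genes, deviations from the mean log2 CPM of each group had correlations of 0.886, 0.856 and 0.739 in pairs 1, 2 and 3. These correlations describe libraries of the same number and do not show that the cells were grown as pairs. The study states that the sequencing was repeated independently for each condition. A gene with an adjusted p under 0.05 was called. The standard error (SE) was the size of the log2 fold change over the root of F, and changes per pair use a prior count of 2. The fit was tested on simulated data, in which far fewer genes were changed than were called here. There the share of unchanged genes among the calls was above the nominal level. Adjusted p-values, above all those near the threshold, are thus less certain than stated. The simulation does not give that share for these data.

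The rule for the 44 genes uses no counts, but the genes, lists and tests were chosen with earlier results of these data known. Values in each library are given for every gene of the set called at an adjusted p under 0.05, and for ATF4, DDIT3 and ASNS in any case, and the other genes of the set are given by their changes. Up to 3 called genes with the smallest adjusted p are named from each list of related genes, except for 1 result that is not reported here. Library values of CEBPB, TRIB3, SLC38A2 and AARS and the split by the multisynthetase complex were chosen after their values were seen. The same holds for the genes SLC6A9, XPOT, HSPA5, EIF2S3, EIF2AK2, EIF2AK3, FGF21, NUPR1, JDP2, NFIL3 and the scaffold genes. Positions in GRCh37, transcript lengths and GC content come from GENCODE v44 lifted to that build, matched through older symbols in RefSeq, with the canonical transcript or, where none is marked, the longest. Of the genes tested, 84.0% had a GC value, and all 44 of the set. The alternatives were DESeq2 1.42.0 with the block, its size factors in edgeR, no block, every gene kept, a minimum of 10 counts per library, rRNA kept, mitochondrial genes removed, each replicate number left out, a log2 fold change of at least 1 and, chosen after seeing the data, a correction for GC content and length with the block.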

Additional observations from a re-analysis of the deposited data

How the results depend on the processing

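The direction of the set did not depend on the setting. The median log2 fold change of the 44 genes was between -0.30 and -0.37 under the settings with all libraries, and between -0.29 and -0.43 with a replicate number left out. The number of genes that fell was 23 and was between 19 and 26 with DESeq2 and the block, its size factors, either filter, rRNA kept, mitochondrial genes removed and the GC correction, and the number that rose was 3 or 4. Without the replicate block, where same-numbered libraries are not matched, 0 genes of the set fell and 0 rose, and 0 synthetases fell. Of all 16835 genes, 3 fell and 18 rose without the block. Where a change of 1 or more on the log2 scale was required, 0 genes of the set fell, 0 synthetases fell and 2 genes of the set rose. Of all 16835 genes, 345 then fell and 541 rose. With 1 replicate number left out, from 4 to 25 genes of the set fell and 3 or 4 rose, and from 0 to 8 synthetases fell and from 0 to 1 rose. The low ends of the falls are those without replicate 3, where 483 of all genes fell against 1577 and 750 rose against 1931. Without replicates 1 and 2 in turn, 1955 and 1367 of all genes fell and 2443 and 1572 rose. Each of these fits has 4 libraries. With DESeq2, 950 of all genes fell, and with the GC correction 1952 of 14138 genes fell. The GC correction called 9 synthetases as lower and 1, DARS, as higher. The 9 include MARS and SARS, which were not called without the correction. TRIB3, not a synthetase, was called as lower as well. Signs turned only in genes near 0 that were never called: FARSA had 0.0025 without the replicate block, and TARS had 0.0014 with the GC correction. With a replicate number left out, FARSA ranged from -0.119 to 0.0077, HARS from -0.033 to 0.180, SLC38A2 from -0.0035 to 0.185 and TARS from -0.0973 to 0.0125. The cause of these differences was not tested. Single genes were followed through these settings only for the 44 genes of the set. Calls in the lists of related genes, such as the chaperones, were not checked in this way. At this depth CHAC1, with 10 counts in its lowest library, had the largest standard error among the genes called, 0.23.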
